A study of Mus musculus with 10 samples.

Results

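Reg1, Reg3b, Reg3g, Dmbt1 and Retnlb encode proteins that the intestinal lining secretes towards the lumen. They were taken by symbol, 5 of the 18020 gene symbols listed over 10 libraries of small intestinal crypt cells from C57Bl/6 mice. RNA was read in plates of 384 wells with CEL-seq2, a method that copies RNA from its 3′ tail, gives each molecule a random barcode and amplifies the copies as RNA. In 3 libraries, called picked replicates 1 to 3, the wells hold doublets or triplets taken by mouth pipette after mild dissociation. In 7 libraries the wells hold sorted single cells after dissociation. Of these, sorted replicates 6 and 7 carry the code GK5b in their titles, with the suffixes G and L. Sorted replicates 1 to 5 carry the code GK5a, followed by M2 and a running number. The titles explain none of this, so which libraries are replicates of 1 condition is not known. The labels name the same strain and tissue for all libraries and give no animals, ages, sexes or further alleles, so every p-value below rests on the spread among libraries alone, and that spread may be technical. A well entered with 1000 or more endogenous transcripts, which left 501 picked and 1615 sorted wells.

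The Reg genes encode small secreted C-type lectins. Reg3b and Reg3g bind bacterial surfaces, are known to kill or hold off bacteria at the mucosa, and are induced by interleukin 22 and by contact with microbes through Stat3 and Myd88. Reg1 belongs to the same lectin family and is known from pancreas and regenerating epithelium. Dmbt1 is a large glycoprotein built of scavenger receptor domains that binds bacteria and is found in mucus. Retnlb, also called RELM-beta, is a cysteine-rich protein of goblet cells that is induced by interleukin 4 and 13 and by colonisation, and acts against worms and bacteria. In the textbook picture of the crypt, stem cells sit at its base beside granule-filled Paneth cells, dividing progenitors lie above them, and enterocytes and mucus-filled goblet cells move up onto the villus.

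In the GENCODE annotation of GRCm38 (mm10), Reg3b lies on chromosome 6 from 78370657 to 78373466, Reg1 from 78422711 to 78428667 and Reg3g from 78466269 to 78468872. Together with Reg2, Reg3a and Reg3d they make a run of 6 Reg genes over 98.2 kb. Dmbt1 lies on chromosome 7 from 131032053 to 131121630, and Retnlb on chromosome 16 from 48816856 to 48818892. The transcripts of Reg3b and Reg3g, 783 and 771 bases long, were 74.7% identical over their aligned bases. Over the last 300 bases, where CEL-seq2 reads lie, they were 69.5% identical and shared no run longer than 17 bases. The assignment of reads between such relatives by the authors' counting is not given in the sources used here, so the values of both carry that uncertainty.

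The 250 bases before the RefSeq start site are shown for the 3 lectin genes, because Reg3b and Reg3g were the pair that moved together most from well to well, and Reg1 is their neighbour that did not. They are from RefSeq on GRCm38.p6, at chr6:78370635-78370884 on the plus strand for Reg3b, chr6:78468875-78469124 on the minus strand for Reg3g and chr6:78425733-78425982 on the plus strand for Reg1. The RefSeq start sites of Reg3b and Reg1 lie inside the GENCODE bounds above, which span all transcripts of a gene, so the Reg1 stretch lies wholly and the Reg3b stretch mostly within the annotated gene. Of the 5 genes 3 had a match in that table. Capitals mark TATAAAA and TTCNNNGAA, a palindromic motif known to be bound by Stat factors.
Reg3b: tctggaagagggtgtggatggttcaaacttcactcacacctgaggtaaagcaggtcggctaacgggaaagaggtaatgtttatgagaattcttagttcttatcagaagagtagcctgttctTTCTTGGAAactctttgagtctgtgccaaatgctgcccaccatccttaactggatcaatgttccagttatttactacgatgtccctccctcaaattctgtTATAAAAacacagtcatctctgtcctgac
Reg3g: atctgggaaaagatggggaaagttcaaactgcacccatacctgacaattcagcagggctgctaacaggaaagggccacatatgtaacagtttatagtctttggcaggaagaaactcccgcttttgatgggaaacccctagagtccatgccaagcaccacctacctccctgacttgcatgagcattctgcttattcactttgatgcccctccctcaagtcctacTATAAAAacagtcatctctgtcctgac
Reg1: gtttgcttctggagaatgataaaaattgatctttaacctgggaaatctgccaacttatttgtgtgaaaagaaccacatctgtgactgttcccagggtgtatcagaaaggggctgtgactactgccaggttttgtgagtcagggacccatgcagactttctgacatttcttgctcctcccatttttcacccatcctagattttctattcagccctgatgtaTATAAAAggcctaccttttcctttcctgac

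Counted from the start site, TATAAAA began at -29 in Reg3b, -27 in Reg3g and -30 in Reg1, in each on the sense strand. Over the 32851 promoters of the table, 4.98% hold TATAAAA on either strand and 3.02% on the sense strand. TTCNNNGAA was found once, at -129 in Reg3b, and 7.02% of the promoters hold it. The Reg3b and Reg3g stretches were identical at 70.0% of 247 aligned bases and ended in the same 20 bases, acagtcatctctgtcctgac. Reg1 was 60.5% identical to Reg3b and 63.4% to Reg3g, with no shared run over 8 bases. These matches describe letters in the window and were not tied to any binding.

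Transcript totals ran from 821829 to 1232614 in the picked libraries and from 1022859 to 4832581 in the sorted ones, and the median well held 2756 to 7235 transcripts in picked and 3361 to 16427 in sorted libraries. Picked and sorted libraries also stood apart in genes of sex. Xist, transcribed from the inactive X chromosome of female cells, was at 115 to 155 CPM (a gene's transcripts per 1000000 endogenous transcripts of the wells summed) in picked and 0 to 0.978 CPM in sorted libraries. The Y-linked Ddx3y was at 0 CPM in picked and 60.7 to 100.2 CPM in sorted libraries, so the sex of the animals and the way of collection cannot be told apart. Immune markers made up at most 0.0438% of picked and 0.0967% of sorted transcripts per library. That list leaves out S100a8, S100a9, Camp and Lcn2. In picked libraries these had highest values of 3080, 3771, 1383 and 533 CPM and medians of 0, 0, 0 and 2.43 CPM. In sorted libraries S100a8 reached at most 0.227 CPM, S100a9 and Camp 0 CPM and Lcn2 1.96 CPM. The cells behind these values were not tested. Paneth markers made up 1.05% to 12.4% of transcripts in picked and 0.330% to 1.62% in sorted libraries.

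Wells were placed in classes by the share of their transcripts from marker lists that hold none of the 5 genes, with limits chosen after the distributions were seen. At least 5% from Paneth, 3% from goblet, 1% from enteroendocrine, 0.5% from tuft or 2% from enterocyte markers made a well of that class. The other wells were called stem wells at 0.3% or more from stem markers, then cycling wells at 0.3% or more from proliferation markers, and otherwise remaining wells. Among the sorted wells 49 were Paneth, 479 goblet, 47 enteroendocrine, 26 tuft, 106 enterocyte, 326 stem, 323 cycling and 276 remaining wells, and 17 passed for several classes. Among the picked wells 38 were Paneth, 64 goblet and 28 enterocyte wells. The median sorted Paneth well drew 42.4% of its transcripts from the Paneth list, the median sorted goblet well 9.97% from the goblet list and the median sorted enterocyte well 6.83% from the enterocyte list. Picked wells of these classes drew 11.7%, 7.21% and 4.52%, and they were meant to hold more than 1 cell. Each limit cuts a range: 64 picked and 172 sorted wells lay within a factor of 2 of the goblet share and 29 picked and 19 sorted wells within a factor of 2 of the Paneth share, so picked wells lay near these limits more often for the size of their class. Class levels below are per library with at least 5 wells of the class, and the tests set class wells against the other wells of the same sorted libraries, with library as a block.

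Reg3b was highest in enterocyte wells and in remaining wells and lower in all other classes. In sorted replicates 1 to 5 it reached 8655, 6221, 6004, 7569 and 9628 CPM in enterocyte wells, against 1283 to 2252 CPM in the other wells. Every enterocyte value lay above every value of other wells, and the log2 difference was 2.38 (SE 0.18, adjusted p = 8.1e-06, limma with Benjamini-Hochberg adjustment over 7446 genes). In remaining wells it lay between 4305 and 9066 CPM over the 7 sorted libraries, 1.85 higher on the log2 scale (SE 0.12, adjusted p = 1.1e-06). Remaining wells, a median 19.1% of the sorted wells of a library, held a median 40.8% of its Reg3b transcripts, and enterocyte wells held 29.2%.

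In goblet wells Reg3b was lower than in the other wells of every sorted library, at 2420, 712, 536, 793, 254, 1901 and 2234 CPM in replicates 1 to 7, against 2238 to 3115 CPM. The log2 difference was -1.14 (SE 0.33, adjusted p = 0.017) and was no longer called with the goblet share doubled (-0.78) or without sorted replicate 3 (-1.03). Paneth wells, counted in 5 sorted libraries, held 293, 1382, 93.9, 54.0 and 459 CPM, against 2051 to 3112 CPM in the other wells. One well gave 92.8% of the Reg3b transcripts in the Paneth wells of sorted replicate 2, which stood at 105 CPM without it. The fit gave -2.39 (SE 0.53, adjusted p = 0.011), where the median gene of that comparison was at -1.72. That call was lost on leaving out sorted replicate 1 (-2.46), 4 (-2.15) or 5 (-1.82).

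Stem and cycling wells had less Reg3b. Stem wells held 104 to 827 CPM with a median of 352 CPM, and the log2 difference to other wells was -3.07 (SE 0.25, adjusted p = 6.6e-07). Cycling wells held 285 to 1866 CPM with a median of 880 CPM (log2 difference -1.84, SE 0.27, adjusted p = 1.4e-04). Enteroendocrine and tuft wells had medians of 119 and 84.0 CPM, with log2 differences of -5.13 (SE 0.94, adjusted p = 0.0035) and -5.13 (SE 0.39, adjusted p = 3.1e-04).

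Reg3g shared the high levels in enterocyte and remaining wells and its differences in goblet and Paneth wells did not pass. Enterocyte wells held 4953, 3645, 5253, 6053 and 6457 CPM in sorted replicates 1 to 5, against 1250 to 2715 CPM in the other wells (log2 difference 1.69, SE 0.19, adjusted p = 8.5e-05). Remaining wells held 2922 to 7195 CPM with a median of 4324 CPM (log2 difference 1.33, SE 0.20, adjusted p = 5.0e-04). Goblet wells held 2769, 1693, 1918, 1876, 709, 3698 and 5413 CPM in sorted replicates 1 to 7, against 1603 to 3172 CPM in the other wells. Goblet wells were the higher ones in 4 of these 7 libraries, and the log2 difference of 0.27 (SE 0.31, adjusted p = 0.51) did not pass. In Paneth wells Reg3g stood at 2759, 2274, 1530, 704 and 5390 CPM, against 1600 to 3031 CPM in the other wells, with a log2 difference of 0.68 (SE 0.31, adjusted p = 0.14) that changed sign when library totals replaced the scaling. A single well gave 78.8%, 77.9% and 80.8% of the Reg3g transcripts of the Paneth wells in sorted replicates 1, 4 and 5. Stem, cycling, enteroendocrine and tuft wells were all lower, with medians of 293, 994, 195 and 111 CPM and log2 differences of -3.06, -1.67, -3.79 and -6.04, each past the threshold. The tuft call was lost without sorted replicate 1 (-6.03) or 4 (-6.37), and that of remaining wells with the class shares doubled (0.26).

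**Figure D1:**
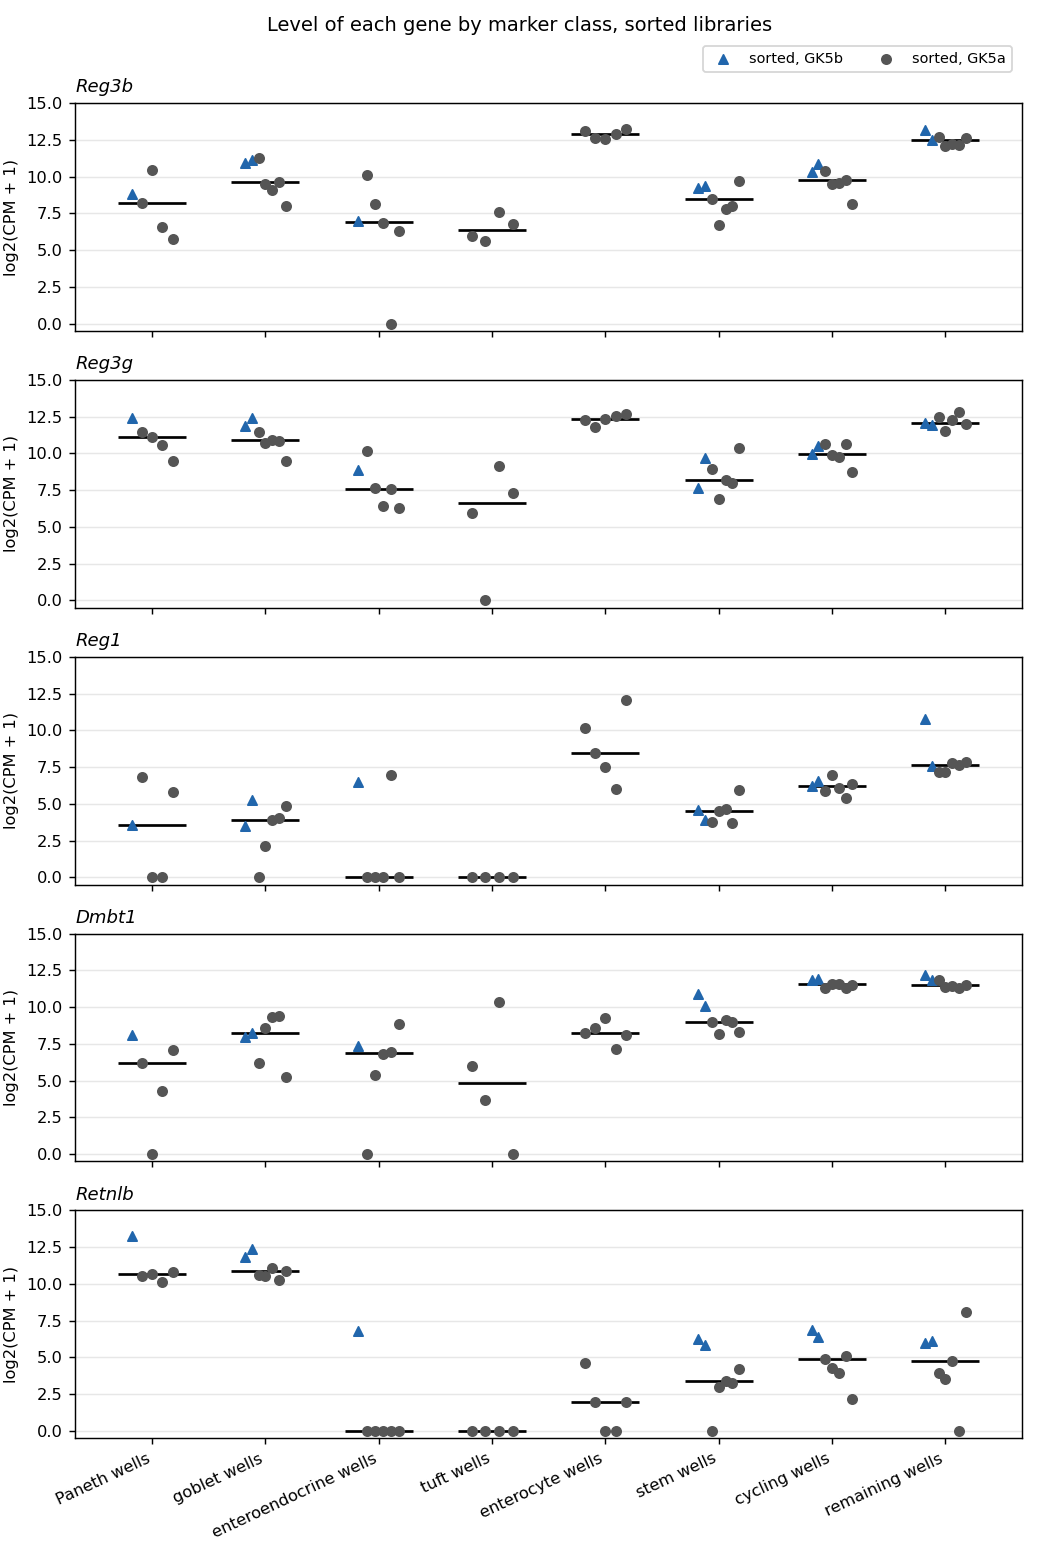
Level of each gene as log2(CPM + 1), on the vertical axis, in wells of each marker class, with 1 point per sorted library with at least 5 wells of the class. Blue triangles are GK5b and grey circles GK5a libraries, and bars are medians. Reg3b and Reg3g peak in enterocyte and remaining wells, Dmbt1 in cycling and remaining wells, and Retnlb in goblet and Paneth wells.

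The balance of these lectins differed in value between classes within a library. CEL-seq2 counts 1 tag per molecule, and both transcripts are of nearly the same length, so their numbers were set against each other directly. In enterocyte wells of sorted replicates 1 to 5 there were 0.572, 0.586, 0.875, 0.800 and 0.671 Reg3g transcripts per Reg3b transcript. Reg3b was the more abundant in all 5 of these libraries. In goblet wells of sorted replicates 1 to 7 the ratio was 1.14, 2.38, 3.58, 2.36, 2.79, 1.95 and 2.42, above 1 in 7 of 7. In Paneth wells of 5 sorted libraries it was 9.43, 1.65, 16.3, 13.0 and 11.7, with the low value in replicate 2, where 1 well held most of the Reg3b. The Reg3b transcripts under these ratios were 8.0, 69.5, 5.0, 2.0 and 42.0, so the ratios other than those of replicates 2 and 7 rest on few transcripts. Without the richest well of each gene, Paneth wells held 762 CPM of Reg3g and 127 CPM of Reg3b in sorted replicate 1, and 392 CPM of Reg3g and 43.5 CPM of Reg3b in sorted replicate 4. Stem and cycling wells had median ratios of 1.23 each, above 1 in 5 of 7 libraries, and remaining wells 0.679, above 1 in 2 of 7. In picked libraries the ratio was 1.16, 1.04 and 1.54 in goblet wells, 1.03, 1.62 and 4.25 in Paneth wells, and 0.476 and 0.286 in the enterocyte wells of replicates 2 and 3. These ratios are descriptions of the libraries and were not tested.

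**Figure D2:**
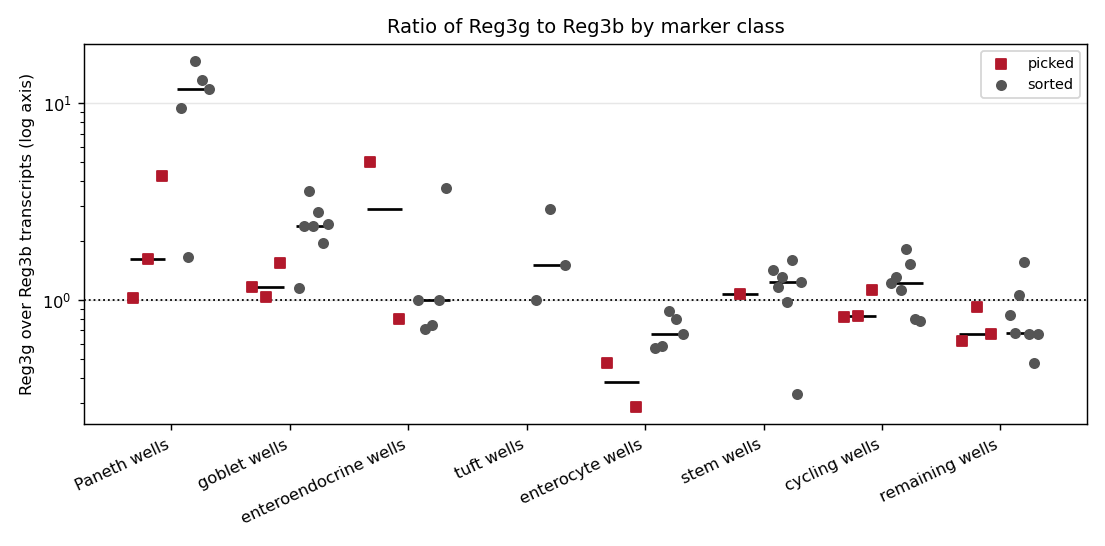
Reg3g transcripts per Reg3b transcript in each library and class, on a log axis, with red squares for picked and grey circles for sorted libraries, bars for medians of the plotted ratios and a dotted line at 1. The 5 sorted enterocyte points lie below the line, the 7 sorted goblet points above it, and 4 of the 5 sorted Paneth points near or over 10. A tuft library with a ratio of 0 and an enteroendocrine library with no Reg3b transcript are not drawn.

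Across single wells, Reg3b and Reg3g went together more closely than any other pair of the 5 genes. Pearson's r of log2(CPM + 1) over the wells of a library was 0.686 to 0.853 in picked and 0.738 to 0.794 in sorted libraries. Wells of a library share depth and class makeup, so this is a description. Reg1 and Reg3b had 0.142 to 0.194 in picked and 0.0758 to 0.219 in sorted libraries, and Dmbt1 and Retnlb had -0.525 to -0.230 in sorted libraries.

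Reg1 was rarer and rested on few wells. Between 1 and 4 wells held the upper 50% of its transcripts in every library, and the single richest well held 14.4% to 86.4%. Enterocyte wells of sorted replicates 1 to 5 held 1114, 345, 181, 61.8 and 4294 CPM, against 56.9 to 102 CPM in the other wells, and were the higher ones in 4 of the 5. The log2 difference was 2.76 (SE 0.71, adjusted p = 0.010), but only 4, 9, 3, 3 and 6 of the 21, 29, 12, 20 and 20 wells had a transcript. With clusters of wells in place of the marker shares it was -0.61, and with the enterocyte share doubled 0.26. In remaining wells Reg1 stood at 140 to 1743 CPM with a median of 201 CPM (log2 difference 1.35, SE 0.58, adjusted p = 0.12), which was called without sorted replicate 5 (1.88). The highest value, in sorted replicate 6, was 316 CPM without 1 well. Goblet wells held 0 to 36.7 CPM (log2 difference -3.88, SE 0.62, adjusted p = 4.2e-04) and stem wells a median of 21.3 CPM (log2 difference -3.10, SE 0.21, adjusted p = 1.3e-07). Cycling wells had a median of 71.3 CPM and a log2 difference of -1.30 (SE 0.38, adjusted p = 0.015). In enteroendocrine wells it was lower, with a log2 difference of -5.15 (SE 1.45, adjusted p = 0.027), a call lost without sorted replicate 1, 2, 3 or 5. In Paneth wells it stood at 0 to 109.8 CPM, from 1 transcript or none in most wells, and its call there (-3.33, SE 1.07, adjusted p = 0.0497) was lost on leaving out any of the 5 libraries (-4.23 to -2.56).

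Dmbt1 had another pattern, highest in wells that cycle and in remaining wells and low in wells rich in enterocyte, goblet or Paneth markers. Cycling wells of sorted replicates 1 to 7 held 2539, 3107, 3112, 2532, 2870, 3729 and 3862 CPM, against 803 to 1568 CPM in the other wells. They were the higher ones in 7 of 7 libraries (log2 difference 1.39, SE 0.12, adjusted p = 1.8e-06), and with a median 20.5% of the wells they held a median 55.2% of the Dmbt1 transcripts. Remaining wells held 2502 to 4718 CPM (log2 difference 1.18, SE 0.11, adjusted p = 1.7e-05). Stem wells were at 1925 and 1100 CPM in GK5b and 294 to 551 CPM in GK5a libraries, against 1705 to 2372 CPM in the other wells, with a log2 difference of -1.80 (SE 0.25, adjusted p = 7.8e-05). They were the higher ones in 1 of the 7 libraries, sorted replicate 6, where 7 stem wells held 1925 CPM, against 1705 CPM in the other wells.

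In enterocyte wells Dmbt1 was at 297, 380, 605, 144 and 272 CPM, against 1678 to 2070 CPM in the other wells (log2 difference -2.31, SE 0.21, adjusted p = 2.9e-05). With the enterocyte share halved the difference was -0.49 and no longer passed, as wells with less of the enterocyte list then entered. Goblet wells held 73.5, 374, 652, 659, 36.3, 248 and 296 CPM, against 1676 to 3731 CPM (log2 difference -2.95, SE 0.44, adjusted p = 2.3e-04). Paneth wells held 0 to 273 CPM (log2 difference -4.75, SE 0.88, adjusted p = 0.0039). Enteroendocrine and tuft wells were lower too, with differences of -5.18 (SE 0.85, adjusted p = 0.0020) and -6.04 (SE 1.36, adjusted p = 0.033) on the log2 scale, and the tuft call was lost without sorted replicate 1, 2 or 4 (-6.25, -5.68 and -4.35).

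Sorting the wells by their enterocyte markers separated Dmbt1 from Reg3b and Reg3g. Sorted wells of no Paneth, goblet, enteroendocrine or tuft class were binned by the share of their transcripts from the enterocyte list, and the medians below are over libraries with at least 5 wells in the bin. From the bin under 0.1% up to that over 5%, Dmbt1 had medians of 178, 1513, 3353, 4287, 2365, 706 and 62.2 CPM. The bin from 0.3% to 0.5% was above that from 0.1% to 0.3% in 7 of 7 libraries, and the bins from 2% to 5% and over 5% were below it in 5 of 5. Reg3b had medians of 233, 578, 1219, 5135, 10663, 8779 and 5840 CPM over the same bins. It was higher over 5% than at 0.3% to 0.5% in 5 of 5 libraries, though above the 2% to 5% bin in 1 of 5. Reg3g followed, with 344, 766, 1793, 4964, 8442, 6578 and 5899 CPM, and Reg1 with 6.99, 50.4, 62.6, 212, 952, 362 and 17.8 CPM, the last over a range of 0 to 5500 CPM. The proliferation list had a median share of 0.198% under 0.1%, 0.394% at 0.1% to 0.3% and 0.0154% over 5%. The stem list likewise was highest in the second bin, with 0.164%, 0.320% and 0% in these 3 bins. The bins from 1% to 2% and from 2% to 5% hold 40 and 36 wells, and the data are counts of wells along a marker share, not times.

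**Figure D3:**
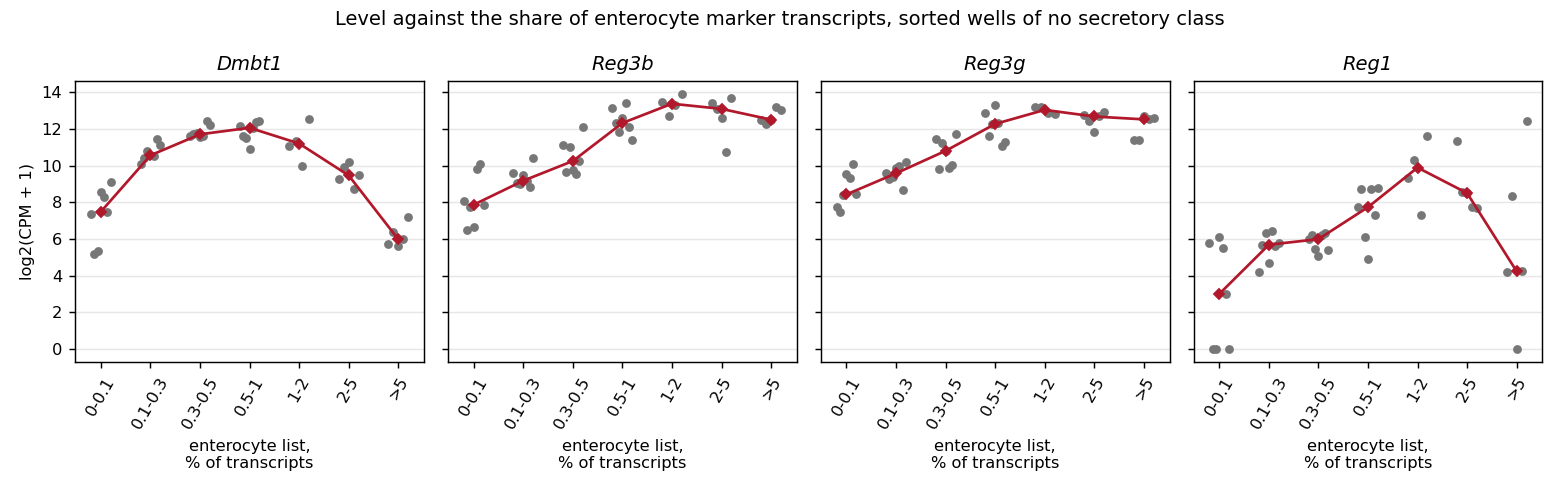
Level of Dmbt1, Reg3b, Reg3g and Reg1 as log2(CPM + 1), on the vertical axis, against the share of a well's transcripts from the enterocyte list, in 7 bins on the horizontal axis. Grey points are sorted libraries with at least 5 wells in the bin, and red diamonds joined by a line are medians. The median of Dmbt1 peaks at 4287 CPM in the bin from 0.5% to 1%, that of Reg3b at 10663 CPM in the bin from 1% to 2%. The bins over 1% hold 4 or 5 of the 7 libraries. By library, Dmbt1 peaked at 0.3% to 0.5% in 3 of 7 and at 0.5% to 1% in 3 of 7. Reg3b peaked at 2% to 5% in 3 of 7 and at 1% to 2% in 2 of 7.

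Retnlb was high in goblet and Paneth wells. Goblet wells of sorted replicates 1 to 7 held 1564, 1496, 2139, 1236, 1870, 3659 and 5228 CPM, against 27.2 to 109.9 CPM in the other wells. Every goblet value lay above every value of other wells (log2 difference 5.47, SE 0.18, adjusted p = 2.8e-09), and goblet wells held a median 87.7% of the Retnlb transcripts of a library. Paneth wells held 1465, 1613, 1110, 1760 and 9714 CPM, against 183 to 1583 CPM in the other wells, the goblet wells among them, and were the higher ones in 5 of 5 libraries (log2 difference 3.77, SE 0.20, adjusted p = 9.2e-08). The Paneth value of sorted replicate 7 was 4113 CPM without 1 well that passed for both classes. The median sorted Paneth well drew 1.56% of its transcripts from the goblet list, and the part of goblet transcripts in the Paneth value was not tested beyond leaving out the wells of several classes, which kept the call.

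Outside these classes Retnlb was low. Medians were 28.3 CPM in cycling, 26.1 in remaining, 9.52 in stem and 2.87 CPM in enterocyte wells, with log2 differences of -4.52, -4.36, -5.38 and -6.09, all past the threshold. Wells of no secretory or enterocyte class held 1.32% to 2.79% of the goblet wells' Retnlb level in GK5b and 0.839% to 3.97% in GK5a libraries. For 7 other goblet genes, Muc2, Tff3, Clca3, Zg16, Fcgbp, Agr2 and Spink4, the same figure was 1.16% to 8.12% in GK5b and 0.0858% to 2.68% in GK5a libraries, and these genes are all on the goblet list, in which wells of no class are low by their choice. Background RNA and low expression in these wells were not told apart. The 3.97% came from sorted replicate 5, where 9 of the 142 wells of no class had a Retnlb transcript. A single remaining well gave 99.1% of the Retnlb transcripts of the remaining wells there, which stood at 268 CPM with it and at 2.45 CPM without it. No Retnlb or Reg1 transcript was found in the 23 tuft wells of 4 sorted libraries. Against a floor of 3 transcripts over these wells, or 17.6 CPM, Retnlb was at least 13.4-fold and Reg1 at least 6.44-fold lower than in the other wells of those libraries.

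The counts of calls among the 5 genes are given beside the share of all tested genes called. In enterocyte wells 3 of the 5 genes were higher, with 23.9% of all genes higher, and 2 lower, with 31.1% lower (55.0% called in all). In goblet wells 1 was higher (17.3% of all genes) and 3 lower (21.6%, 38.9% in all), and in Paneth wells 1 was higher (1.55%) and 3 lower (16.3%, 17.9% in all). In stem wells 0 were higher (17.9%) and 5 lower (22.1%, 40.0% in all). In cycling wells 1 was higher (19.9%) and 4 lower (19.9%, 39.8% in all), and in remaining wells 3 were higher (10.4%) and 1 lower (11.7%, 22.0% in all). All 5 were lower in enteroendocrine wells, with 3.34% of all genes higher and 21.6% lower (24.9% in all), and in tuft wells, with 2.44% higher and 10.1% lower (12.5% in all). The median log2 difference of all genes was -1.28 in enteroendocrine and -1.23 in tuft wells.

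Over all wells, Dmbt1 was the 1 gene of the 5 that passed between picked and sorted libraries. It was higher, as were 14.2% of all genes, while 0 of the 5 and 16.0% of all genes were lower, and 30.2% of all 10427 genes tested were called. Dmbt1 was at 1414, 2403 and 2169 CPM in picked libraries, against 1504 to 2014 CPM in sorted ones with a median of 1683 CPM. The log2 difference was 0.52 (SE 0.14, adjusted p = 0.016), where the median gene stood at -0.09. The groups overlap, as picked replicate 1 was the lowest of all before scaling, and the difference was 0.19 with library totals and was no longer called without picked replicate 2 (0.40) or 3 (0.48). In such sums more cells of a type and more RNA per cell cannot be told apart. The share of wells with a Dmbt1 transcript, after every well was thinned to 1000 transcripts, was 64.6% ± 7.99 in picked and 40.5% ± 4.51 in sorted libraries (SD, n = 3 and 7). A picked well holds a doublet or triplet by design and counts if any of its cells gives a transcript. Thinning does not undo this, so the 2 shares are not alike in measure.

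The Reg genes did not pass between picked and sorted libraries. Reg3b was at 3079, 1940 and 1363 CPM in picked libraries, a mean of 2127 ± 873 CPM, against 2398 ± 396 CPM in sorted ones (SD, n = 3 and 7), with a log2 difference of 0.09 (SE 0.25, adjusted p = 0.80). This difference, taken after scaling, is positive although the picked mean is lower, and it changed sign with library totals. Reg3g was at 3010, 1620 and 1092 CPM, a mean of 1907 ± 991 CPM, against 2531 ± 515 CPM in sorted libraries (log2 difference -0.18, SE 0.31, adjusted p = 0.69). Reg1 was at 35.8, 31.7 and 90.6 CPM in picked libraries, against 69.3 to 712 CPM in sorted ones (log2 difference -1.28, SE 0.59, adjusted p = 0.12). Without its richest well Reg1 was at 4.97 CPM in picked replicate 1 and at 433 CPM in sorted replicate 5. In wells of no secretory or enterocyte class, where 15.7% of genes were called higher and 17.7% lower (33.4% in all), Reg1 was lower in picked libraries by -1.85 (SE 0.62, adjusted p = 0.031), but the call was lost without picked replicate 1 (-0.78) or 2 (-1.95).

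Retnlb differed widely among the picked libraries. In picked replicates 1 to 3 it reached 600, 0 and 55.2 CPM, against 217 to 2167 CPM in sorted libraries (log2 difference -3.44, SE 1.52, adjusted p = 0.10). Picked replicate 2 lists no Retnlb at all, and with 0 of 179 wells a share of up to 1.68% of wells with a transcript is allowed. The 19 goblet wells of that library had none, which allows up to 15.8%, while 14 of 14 goblet wells had a transcript in picked replicate 1 and 8 of 31 in picked replicate 3. These limits cover the drawing of wells and not detection within a well, and that library was the shallowest, with 2756 transcripts in its median well. A floor of 3 transcripts over all its wells was 3.65 CPM, against 217 CPM or more in sorted libraries. In its goblet wells Spink4 stood at 20048 CPM, against 4826 to 12838 CPM in sorted goblet wells. Other goblet genes were lower there, with Muc2, Zg16, Clca3 and Tff3 at 5704, 5310, 989 and 18261 CPM. Sorted goblet wells held at least 15230, 17578, 3328 and 24778 CPM of these. Fcgbp and Agr2 also lay below their sorted goblet values. The cause of the 0 was not tested. The test is set by the picked libraries: the log2 difference was -5.69 (adjusted p = 0.011) without picked replicate 1 and -0.85 without picked replicate 2.

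**Figure D4:**
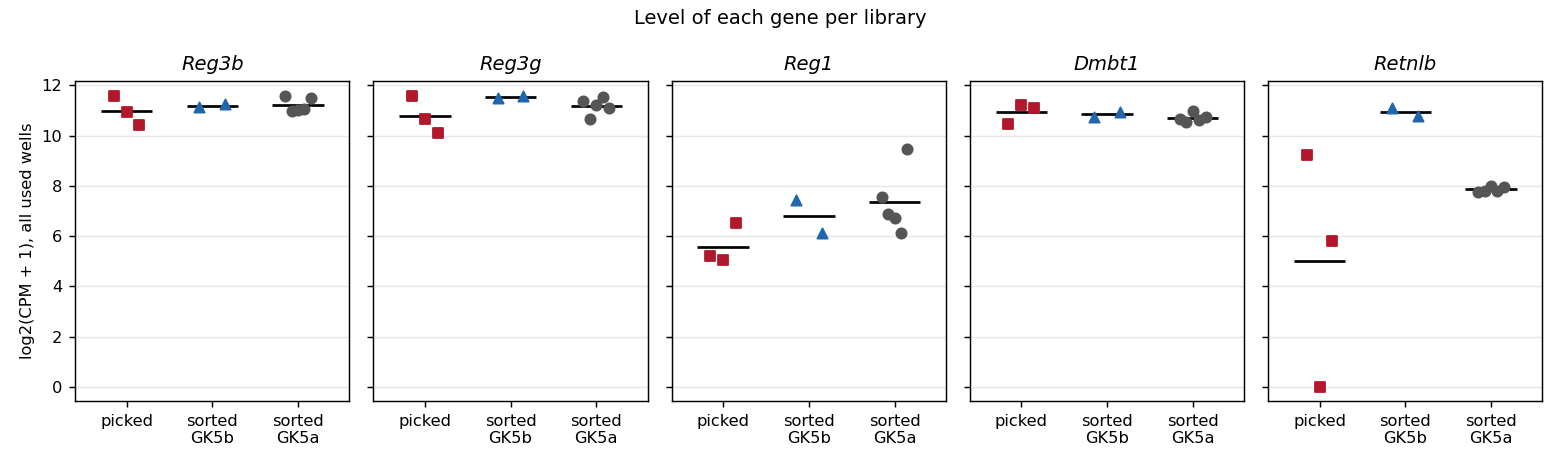
Level of the 5 genes over all used wells as log2(CPM + 1), on the vertical axis, with 1 point per library for picked, sorted GK5b and sorted GK5a libraries and bars at the mean of the log2 values. Retnlb is at 0 in picked replicate 2 and is highest in both GK5b libraries.

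Within goblet wells, a contrast chosen after the data were seen, Dmbt1 was the 1 gene of the 4 tested that passed between the ways of collection. Picked goblet wells held 1150, 1441 and 974 CPM, against 36.3 to 659 CPM in sorted goblet wells, without overlap. The log2 difference was 2.56 (SE 0.73, adjusted p = 0.023), and 11.0% of the 4362 genes tested there were called higher and 13.7% lower (24.8% in all). After thinning to 1000 transcripts, 49.1% ± 13.7 of picked and 13.1% ± 7.45 of sorted goblet wells had a Dmbt1 transcript (SD, n = 3 and 7). Any cell of a picked doublet or triplet can give that transcript, which thinning does not undo. The unthinned shares were 87.0% and 41.5%, and tuft wells, a class low in Dmbt1, had 10.0% ± 11.5 in 4 sorted libraries after thinning. Picked goblet wells by design hold other cells too, and drew a median 7.21% of their transcripts from the goblet list, against 9.97% in sorted ones. The proliferation list was also higher in picked goblet wells, at a median of 0.217% of transcripts against 0.0621% in sorted ones. The part of either in the Dmbt1 difference was not tested, so it is not shown to lie in the goblet cells themselves. Retnlb in goblet wells was at 2695, 0 and 341 CPM in picked and 1236 to 5228 CPM in sorted libraries (log2 difference -4.29, SE 1.64, adjusted p = 0.070). Reg3b and Reg3g in the goblet wells of picked replicate 1, at 8525 and 9890 CPM, came to 93.4% and 72.8% from 1 well, and neither gene passed (log2 differences 1.30 and 0.42).

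In Paneth wells, where 8.47% of the 425 genes that could be tested were called higher and 12.9% lower (21.4% in all), picked libraries were lower in Reg3g and Retnlb. These rest on 22, 8 and 8 picked Paneth wells, which by design hold other cells too and drew a median 11.7% of their transcripts from the Paneth list, against 42.4% in sorted Paneth wells, and the part of this in both calls was not tested. Reg3g was at 1322, 779 and 500 CPM in picked and 704 to 5390 CPM in sorted Paneth wells (log2 difference -1.88, SE 0.50, adjusted p = 0.020). Retnlb was at 838, 0 and 0 CPM in picked and 1110 to 9714 CPM in sorted ones (log2 difference -8.09, SE 1.74, adjusted p = 0.010). It could pass the filter of this test only through sorted sums, where it is high, since picked replicates 2 and 3 had none. Its difference is set by these 0 values and the 1 CPM added before the logarithm, so this call carries no support. Picked replicate 2 had no Retnlb in any well. Dmbt1 was at 696, 593 and 353 CPM in picked and 0 to 273 CPM in sorted Paneth wells, without overlap, though the test did not pass (3.39, SE 1.53, adjusted p = 0.12). In enterocyte wells, where 3.54% were called higher and 4.00% lower (7.53% in all), none of the 5 genes passed. There picked replicates 2 and 3 had 10054 and 4110 CPM of Reg3b, against 6004 to 9628 CPM in sorted ones, and Dmbt1 at 689 and 75.3 CPM, against 144 to 605 CPM in sorted ones.

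**Figure D5:**
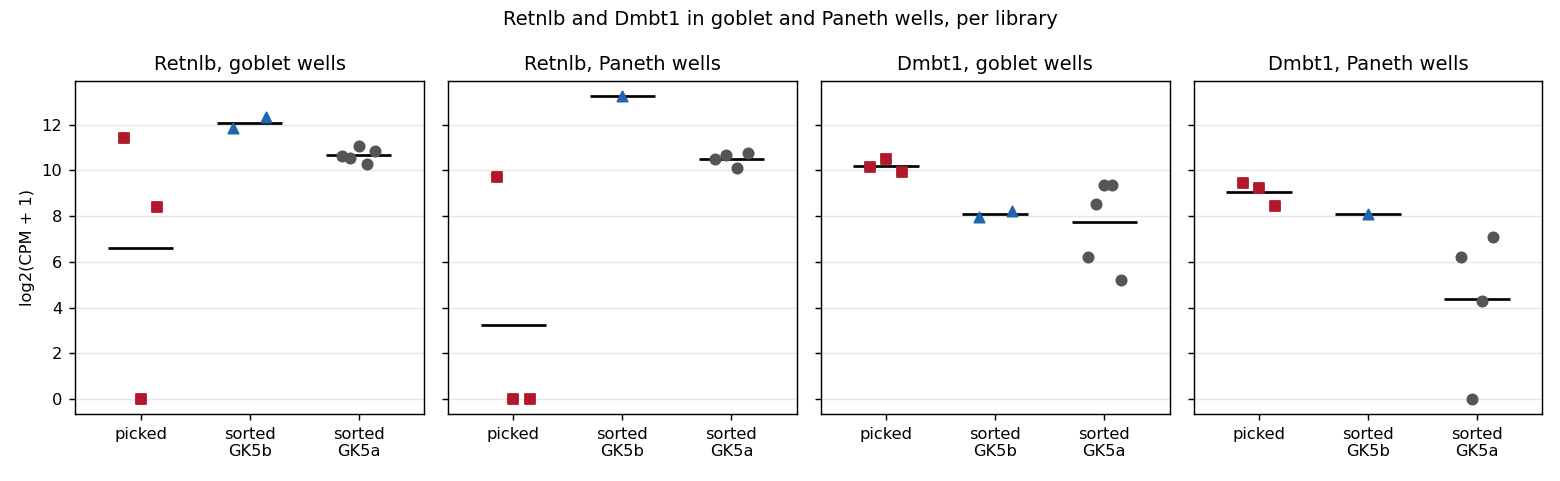
Retnlb and Dmbt1 in goblet and Paneth wells as log2(CPM + 1), on the vertical axis, with 1 point per library and bars at the mean, picked left of sorted. The Dmbt1 points of picked wells lie above those of sorted wells in both classes, and Retnlb is at 0 in the Paneth wells of picked replicates 2 and 3.

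Among the sorted libraries the GK5b pair stood out in Retnlb. It was at 2167 and 1752 CPM in GK5b, against 217 to 252 CPM in GK5a libraries (log2 difference 3.12, SE 0.13, adjusted p = 2.7e-07), where 6.35% of 10641 genes were called higher and 6.66% lower (13.0% in all). Goblet wells were also more frequent there: 296 of the 479 sorted goblet wells came from the 2 GK5b libraries, and the goblet list made up 6.50% and 4.09% of GK5b transcripts. Sorted replicates 6 and 7, G and L by suffix, differed in makeup, with 189 and 107 goblet and 7 and 55 stem wells. Whether they are replicates of 1 condition is not given. Within goblet wells alone, Retnlb was at 3659 and 5228 CPM in GK5b and 1236 to 2139 CPM in GK5a libraries, without overlap, and the log2 difference of 1.43 (SE 0.23, adjusted p = 0.066, limma) did not pass. In that fit 0.00% of 4863 genes were called, and 279 had an unadjusted p under 0.05. After thinning, 80.9% of GK5b and 55.3% of GK5a goblet wells had a Retnlb transcript, against 0 of the thinned enterocyte wells in GK5a. Reg3g in goblet wells ran the same way, at 3698 and 5413 CPM in GK5b and 709 to 2769 CPM in GK5a libraries (log2 difference 1.46, SE 0.38, adjusted p = 0.49). Reg1, Reg3b, Reg3g and Dmbt1 did not pass over all wells, with log2 differences of -0.51, 0.02, 0.40 and 0.19. In wells of no secretory or enterocyte class, where 1.22% of genes were called higher and 0.786% lower (2.01% in all), Dmbt1 was higher in GK5b by 0.55 (SE 0.13, adjusted p = 0.041). Those wells differed in makeup: cycling wells were 102 of the 211 in GK5b and 221 of the 714 in GK5a libraries, and stem wells 62 and 264. Within cycling wells Dmbt1 was at 3729 and 3862 CPM in GK5b and 2532 to 3112 CPM in GK5a libraries, and within remaining wells at 4718 and 3638 CPM in GK5b and 2502 to 3624 CPM in GK5a libraries, without overlap in either. The part of the makeup in the difference was not tested.

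The other Reg genes did not share 1 pattern. Reg3a, a lectin of the same cluster, was at 169 to 1405 CPM in enterocyte wells and was higher there by 3.88 (SE 0.47, adjusted p = 1.7e-04). Reg4, whose gene lies outside the cluster, had medians of 1501 CPM in Paneth and 277 CPM in goblet wells, and was higher by 5.58 (SE 0.55, adjusted p = 1.2e-05) and 3.32 (SE 0.66, adjusted p = 0.0019). Reg2 was listed at 0 in all libraries, and Reg3d did not reach the filter. In picked against sorted libraries 1 of the 2 tested was higher, Reg4 with 1.70 (SE 0.43, adjusted p = 0.011). Of 6 other resistin-like and scavenger receptor genes 3 were listed and none could be tested.

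Genes of the interleukin 22 receptor and its relay were described beside the lectins they are known to induce. Of 9 listed, 7 were tested. In enterocyte wells 4 of the 7 were higher and 0 lower (23.9% and 31.1% of all genes), with a median log2 difference of 1.30 where that of all genes was -0.30. Il22ra1, the receptor chain that gives the epithelium its response, was higher by 2.21 (SE 0.25, adjusted p = 9.0e-05) at a median of 120 CPM, and Socs3, the feedback inhibitor of Stat3, by 2.01 (SE 0.24, adjusted p = 1.5e-04) at 80.3 CPM. In goblet wells 2 were higher and 0 lower (17.3% and 21.6%), Stat3 with 0.84 (SE 0.12, adjusted p = 1.4e-04) and Il22ra1 with 0.78 (SE 0.24, adjusted p = 0.025). In stem wells 0 were higher and 5 lower (17.9% and 22.1%), and in cycling wells 1 was higher and 4 lower (19.9% each way), with Socs3 at -1.58 and Il22ra1 at -1.22. In remaining wells, where Reg3b and Reg3g were high, 0 of the 7 passed either way (10.4% and 11.7%). In picked against sorted libraries 0 were higher and 2 lower (14.2% and 16.0%), Stat3 with -0.79 (SE 0.15, adjusted p = 0.0024) and Il10rb, the second receptor chain, with -1.09 (SE 0.27, adjusted p = 0.010).

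Of 8 tested genes for other secreted defence proteins, 6 were higher and 1 lower in goblet wells, where 17.3% of all genes were higher and 21.6% lower. In Paneth wells 4 were higher and 3 lower (1.55% and 16.3% of all genes), and in enterocyte wells 3 were higher and 4 lower (23.9% and 31.1%). In both cycling wells (19.9% each way) and stem wells (17.9% and 22.1%) 0 were higher and 8 lower. Itln1, a lectin that binds bacterial sugars, was at a median of 54358 CPM in Paneth wells. Ang4 and Zg16 of that list are also class markers, so their class differences (Ang4 by 10.8 in Paneth and Zg16 by 7.94 in goblet wells) are no independent result. In picked against sorted libraries 2 of the 8 were higher and 0 lower (14.2% and 16.0% of all genes), Ang4 with 3.29 (SE 0.64, adjusted p = 0.0025) and Itln1 with 1.84 (SE 0.57, adjusted p = 0.029). In wells of no class 4 of the 8 were higher and 0 lower (15.7% and 17.7% of all genes), Ang4 with 4.44 (SE 0.38, adjusted p = 7.0e-07) and Itln1 with 3.21 (SE 0.39, adjusted p = 2.7e-05). The median well of no class drew 0.172% of its transcripts from the Paneth list in picked and 0.0189% in sorted libraries, and the part of this in these differences was not tested. Among microbe sensing genes, Il18 was higher in enterocyte wells by 3.32 (SE 0.38, adjusted p = 1.1e-04) where 3 of the 4 tested were higher and 0 lower (23.9% and 31.1% of all genes), and it was lower in goblet wells by -2.37 (SE 0.59, adjusted p = 0.0074). Of the interleukin 4 and 13 receptor genes, which relay the signals known to induce Retnlb, 1 was higher and 1 lower of 3 tested in goblet wells (17.3% and 21.6%), Il4ra with 0.84 (SE 0.25, adjusted p = 0.020) and Stat6 with -0.78 (SE 0.14, adjusted p = 8.8e-04). Among other epithelial genes known to answer interleukin 22 or microbes, Nos2 was higher in enterocyte wells by 2.12 (SE 0.37, adjusted p = 0.0013) and lower in goblet wells by -2.17 (SE 0.51, adjusted p = 0.0055). Between GK5b and GK5a libraries, 1 of the 4 tested genes of that list was higher and 1 lower (6.35% and 6.66% of all genes). These were Fut2 with 3.03 (SE 0.36, adjusted p = 2.8e-04) and Nos2 with -2.22 (SE 0.43, adjusted p = 0.0050). Of the 2 other Reg genes tested there, Reg4 was higher with 1.32 (SE 0.34, adjusted p = 0.023) and Reg3a lower with -2.51 (SE 0.35, adjusted p = 7.3e-04). The GK5b libraries held 1 and 3 enterocyte wells and drew 0.260% and 0.288% of their transcripts from the enterocyte list, against 12 to 29 wells and 0.643% to 1.39% in GK5a libraries. They also held 189 and 107 goblet wells, against 31 to 41 in GK5a libraries. The part of this makeup in these 4 differences was not tested.

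Likeness of pattern was measured as Pearson's r of log2(CPM + 1) over 48 sums, each of 1 class in 1 sorted library, among 10427 genes. Retnlb was most like Spink4 (0.91), Ccl9 (0.91), Ccl6 (0.90), Mptx1 (0.88) and Ramp1 (0.88), of which Spink4, Ccl9 and Ccl6 are on the goblet and Mptx1 on the Paneth list that defined the classes. Spink4 had medians of 10220 CPM in goblet and 8941 CPM in Paneth wells, against 24.2 CPM in enterocyte wells. Reg3b was most like Mgat4a (0.82), Agpat9 (0.80), Tm6sf2 (0.80), Ugt2b34 (0.79) and Ccl25 (0.79). Reg3g was most like Lypd8 (0.78), which keeps flagellated bacteria from the epithelium and had medians of 3773 CPM in enterocyte and 3501 CPM in goblet wells, and then like Reg3b (0.75). Dmbt1 was most like Gpx1 (0.82), Slco2b1 (0.82), Adamts15 (0.79), Blmh (0.77) and Mpzl2 (0.76). Reg1 was most like Prkg2 (0.78), Il18 (0.78), Bco2 (0.77), Tmem82 (0.77) and Smlr1 (0.77). The sums share libraries and depth, so these values describe and carry no p.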

How the data were processed

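Per the submitters' processing notes, BWA 0.6.2-r126 aligned the reads to mm10. The counting step is not given in the sources used here. Deposited tables hold the authors' molecule counts per gene and well, corrected for molecules that drew the same one of 4096 barcodes and not normalized. Undoing that correction gave whole barcode counts within 0.001, but the unit was recorded as other, so no count model was run. For each library the values of its used wells were added up, scaled with trimmed-mean (TMM) factors and, as log2(CPM + 1), fitted with limma 3.58.1 (lmFit, eBayes with trend) in R 4.3.3; sums were made in Python 3.11.15. Such differences understate the change of low genes. A gene was tested with 15 transcripts in all and 10, once scaled to the median library, in as many sums as the smaller group held. That number was 3 for picked minus sorted over all wells, 2 for GK5b minus GK5a and 4 to 7 for the class tests. Benjamini-Hochberg adjusted p under 0.05 over all genes tested made a call. On simulated picked and sorted libraries of 10339 genes, 64.0% of 100 genes changed by 1 and 91.0% of 100 changed by 2 on the log2 scale were called. There 15 unchanged genes were called, 8.82% of the calls, above the 0.05 of the threshold. On simulated class sums of 8849 genes 77.0% of 100 and 96.9% of 98 were called, with 4.97% of calls false. These sums were far deeper than those of Paneth, enteroendocrine or tuft wells (170321 transcripts in 23 tuft wells). Recovery in such small classes was not simulated. Columns are well positions, the same in every plate, so cell barcodes shared between libraries could not be counted. Doublets were not called, since picked wells hold several cells by design. No pair of the 24 within a group looked like 1 library deposited again (chi-square per gene 3.99 to 36.2). Shares and limits on counts of 0 cover counting error only.

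The 5 genes, the marker lists and the pathway lists were chosen with earlier results of these data known, so no count over them is independent evidence. Genes named from the tests beyond the 5 are at most 2 per list and comparison with the largest absolute difference among those that passed. The 5 most alike to each gene are named too. Xist, Ddx3y, S100a8, S100a9, Camp, Lcn2, Reg2 and Reg3d were named outside this rule. So were the goblet genes set beside Retnlb and the leading genes of clusters. Comparisons within goblet, Paneth or enterocyte wells, and within wells of no class for GK5b and GK5a, were added after the data were seen.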

Additional observations from a re-analysis of the deposited data

Results flagged for a closer look

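In 11 of 43 groups of 4 to 7 sorted libraries, 1 library lay further from the rest than the 95% limit of Dixon's test allows. The 1 in 20 of that limit holds for independent groups of normally spread values. These groups share libraries and wells, and where all libraries but 1 are at 0 any other value is flagged. The count therefore cannot be set against that rate. Sorted replicate 5 was the far library for Reg1 over all wells (712 CPM), in enterocyte wells (4294 CPM) and in stem wells (60.4 CPM), for Dmbt1 in enteroendocrine wells (460 CPM) and for Retnlb in remaining wells (268 CPM, from 2 of 41 wells, and 2.45 CPM without 1 of them). Sorted replicate 6 was the far one for Reg1 in remaining wells (1743 CPM, and 316 CPM without 1 well). Sorted replicate 1 was far for Reg3b in enteroendocrine wells (1127 CPM, from 1 of 6 wells) and for Retnlb in enterocyte wells (24.0 CPM). Sorted replicate 3 was far for Dmbt1 in tuft wells (1325 CPM). Sorted replicate 7 was far for Retnlb in Paneth wells (9714 CPM) and in enteroendocrine wells (108 CPM, against 0 in the 5 other libraries). The causes were not tested.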

How the results depend on the processing

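Of 766 alternative values over 65 results, 672 kept their direction and side of the threshold, 28 changed direction, 39 fell short of the threshold, 11 came to pass it and 16 shares of wells moved. Causes were not tested unless stated. No paired analysis was possible because the replicate numbers of picked, GK5b and GK5a libraries are only names; class tests hold the library as a block, and without that block Reg1 in Paneth wells (-3.33) and Dmbt1 in tuft wells (-6.04) lost their calls.

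Picked minus sorted, library totals gave -1.61 for Reg1, now called, -0.24 for Reg3b and 0.19 for Dmbt1, and in wells of no class -0.16 for Reg3b, -0.0034 for Dmbt1 and -2.68 for Retnlb, now called. They moved the median gene to -0.40, and 19.4% of their 4309 calls were higher, against 46.9% of 3152 with TMM (in wells of no class 21.3% against 47.0%). Dmbt1 was no longer called without a filter on low genes (0.45) or against GK5b alone (0.41). The mean of CPM per well called Reg1 (-1.36) and Retnlb (-4.56). Class shares cut to 0.5 times their value gave 0.29 for Reg3g in wells of no class.

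In class tests, library totals gave -0.25 for Reg3g in Paneth and -0.0084 in goblet wells, and within GK5a it was -0.24 in goblet wells. The share of calls that were higher was 23.5% against 44.4% with TMM in goblet, 31.9% against 43.4% in enterocyte, 55.4% against 44.7% in stem, 62.7% against 50.0% in cycling, 24.7% against 13.4% in enteroendocrine and 33.8% against 19.5% in tuft wells, and Paneth calls were 3791 against 1244. The lower shares gave -0.49 for Dmbt1 in enterocyte, -0.88 for Reg1 in cycling and -0.45 for Reg1 in remaining wells. Double the shares gave -0.78 for Reg3b in goblet, -6.74 for Reg1 and -8.04 for Retnlb in tuft, 0.26 for Reg1 in enterocyte and 0.26 for Reg3g in remaining wells. Clusters gave -0.61 for Reg1 in enterocyte wells, and the Paneth call of Reg1 was lost within GK5a (-3.82) and with wells of 1 class only (-3.75). GK5b minus GK5a, library totals gave -0.031 for Reg3b.

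Within classes, as added later, picked minus sorted gave 0.42 for Reg3g in goblet wells, -0.16 for Reg3b and -0.36 for Dmbt1 in enterocyte wells, and -1.88 for Reg3g, 3.39 for Dmbt1 and -8.09 for Retnlb in Paneth wells. GK5b minus GK5a gave 1.43 for Retnlb in goblet wells and, in wells of no class, 0.80 for Reg1, -0.38 for Reg3g, 0.55 for Dmbt1 and 1.91 for Retnlb.

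Left-out libraries gave, picked minus sorted, -0.31 to 0.41 for Reg3b, -0.66 to 0.20 for Reg3g, 0.40 to 0.65 for Dmbt1 and -5.69 to -0.85 for Retnlb. In wells of no class they gave -2.83 to -0.78 for Reg1, -0.13 to 0.44 for Reg3b, -0.27 to 0.25 for Reg3g, 0.21 to 0.45 for Dmbt1 and -4.35 to -1.24 for Retnlb. GK5b minus GK5a they gave -1.22 to 0.19 for Reg1 and -0.034 to 0.094 for Reg3b. In class tests they gave -4.23 to -2.56 for Reg1 and -3.08 to -1.82 for Reg3b in Paneth, -1.38 to -0.78 for Reg3b and -0.0040 to 0.56 for Reg3g in goblet, -6.24 to -4.25 for Reg1 in enteroendocrine, -7.28 to -4.40 for Reg3g and -7.78 to -4.35 for Dmbt1 in tuft, and 0.80 to 1.88 for Reg1 in remaining wells.

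Counts of genes called moved by over 1.5 times picked minus sorted against GK5b alone (1449 against 3152), within goblet, enterocyte and Paneth wells (1081, 228 and 91), and GK5b minus GK5a without sorted replicate 6 (216 against 1385) and within goblet wells or wells of no class (0 and 202). They did so for Paneth wells without sorted replicate 2, 4 or 5 (808, 687 and 590 against 1244), goblet wells within GK5a (2281 against 3633), tuft wells without sorted replicate 2 or 4 (510 and 422 against 912), and stem wells with double shares or clusters (802 and 1854 against 3403).

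Depth limits the shares of wells, and picked wells hold doublets or triplets by design, which thinning does not undo. Unthinned, wells with a transcript were 6.85% of picked and 18.0% of sorted for Reg1, 61.8% and 61.1% for Reg3b, 61.7% and 74.1% for Reg3g, and 82.6% and 65.8% for Dmbt1. Thinned to 2000 transcripts, which left out 118 picked and 181 sorted wells, they were 4.61% and 7.39%, 51.9% and 43.4%, 55.3% and 56.1%, and 79.0% and 50.7%.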

Other observations

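The sorted wells were also clustered on 2000 genes without the 5 genes described here. The largest cluster, of 237 wells, was not named by the markers and was led by Gpx3, Kap and Slc34a1. It held 357 CPM of Reg3b, 518 CPM of Reg3g and 1231 CPM of Dmbt1. A proliferation cluster of 125 wells, led by Tff2, Tff1 and Gkn2, held 4224 CPM of Dmbt1. The source of these leading genes was not tested. A cluster of 169 wells that the markers did not name, led by Apol10a, Ms4a18 and Car4, held 9377 CPM of Reg3b, 7438 CPM of Reg3g and 3268 CPM of Dmbt1 together. The enterocyte cluster of 81 wells held 8676 CPM of Reg3b but 111 CPM of Dmbt1. The goblet wells fell mainly into clusters of 209 and 180 wells with like Retnlb, at 4226 and 4855 CPM, while Reg3g was at 5369 and 1440 CPM and Reg3b at 2575 and 768 CPM. Sorted replicates 6 and 7, the GK5b libraries with the higher goblet values of these genes, gave 86 and 57 wells of the first cluster and 52 and 38 of the second. A Paneth cluster of 42 wells held 2875 CPM of Reg3g, 274 CPM of Reg3b and 3789 CPM of Retnlb. An unnamed cluster of 119 wells, led by genes with Dll4 and Atoh1 among them, held 1134 CPM of Retnlb. These values come from all wells of a cluster pooled and carry no test.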
